A study of Mus musculus with 24 samples.

Results

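Collagen chain genes were taken as the protein-coding genes whose symbol is Col, a number, the letter a and a number, which gave 44 of the 55416 genes in the count table. Of these, 11 encode fibrillar collagens, 9 encode network-forming collagens and 24 encode other collagens. All 44 were measured in gastrocnemius muscle of male and female C57BL/6J mice (strain label C56BL6J) that lived for 8 weeks in a small mouse cage (SMC), which restricts movement, or as ambulatory sham controls. No group carried a transgene. The mice were bought at 8 weeks of age, and those of all groups were fasted and then given ketamine and xylazine before tissue was taken. The tissue label is Skeletal Muscle. Each sex thus had a sham and an SMC group, and each of these 4 groups held 6 mice with 1 library each, and the labels do not say which mice shared a cage. Total RNA was depleted of ribosomal RNA and sequenced with strand kept, to between 23026627 and 36880413 counted reads per library.

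Collagens are secreted proteins in which 3 alpha chains wind into a triple helix. Fibrillar collagens such as types I and III form the tension-bearing fibers of the endomysium, perimysium and tendon. Type IV collagen forms the sheet-like network of the basement membrane that wraps every muscle fiber and capillary, type VI forms beaded filaments next to that membrane, and FACIT collagens bind to the surface of fibrils. In muscle most collagen RNA is made by fibroblast-like cells, with type IV collagen also made by endothelial and muscle cells. In whole muscle, fewer collagen-making cells and less collagen RNA per cell cannot be told apart.

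Several libraries stood apart in their marker sums, from lists that were chosen with earlier results of these data known. The 6 muscle fiber markers summed to between 67262 and 137108 CPM (counts scaled to library size with TMM factors) over the 24 libraries, and none of the 4 groups lacked them. Female sham replicates 10 and 12 had the highest sums of 8 tendon cell markers, 833 and 826 CPM, where the other 22 libraries lay between 134 and 456 CPM. Female sham replicate 11 had 1100 CPM of 10 keratinocyte markers against 9.24 to 30.4 CPM in the other 23 libraries. Male sham replicate 4 and female sham replicate 7 had 16.2 and 14.7 CPM of 6 slow fiber markers, against 434 to 3018 CPM in the other 22. Of those libraries, the ones in a comparison were also left out, and the values without them are given where they mattered.

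The sequence upstream of the start annotated in RefSeq is shown for 2 abundant fibrillar chains and for the 4 chains that later differed between the sexes. The sequences come from the RefSeq promoter table on GRCm38.p6, which held an entry for 35 of the 44 genes, whereas the reads were aligned to GRCm39. Each is at most 250 bases before the start, 5′ to 3′ on the gene's own strand, with stretches inside protein-coding exons removed. Capitals mark matches on either strand to 4 motifs, which are CCAAT, the TATA box written as TATAAA, the GC box written as GGGCGG and the core of a SMAD element written as CAGAC. These letters occurred upstream of 33.8%, 12.4%, 32.7% and 42.2% of all 32851 promoters, and of 34.2%, 13.2%, 57.9% and 44.7% of the 38 collagen promoters, respectively.
Col1a2 (chr6:4505370-4505492, plus strand): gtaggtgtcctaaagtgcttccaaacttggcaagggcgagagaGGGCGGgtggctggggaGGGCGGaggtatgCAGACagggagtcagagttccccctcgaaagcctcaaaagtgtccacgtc
Col3a1 (chr1:45311288-45311537, plus strand): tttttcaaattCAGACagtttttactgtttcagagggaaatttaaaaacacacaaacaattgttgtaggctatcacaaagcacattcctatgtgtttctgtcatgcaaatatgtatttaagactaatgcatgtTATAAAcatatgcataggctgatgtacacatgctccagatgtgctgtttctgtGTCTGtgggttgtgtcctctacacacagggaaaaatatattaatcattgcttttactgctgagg
Col20a1 (chr2:180986285-180986534, plus strand): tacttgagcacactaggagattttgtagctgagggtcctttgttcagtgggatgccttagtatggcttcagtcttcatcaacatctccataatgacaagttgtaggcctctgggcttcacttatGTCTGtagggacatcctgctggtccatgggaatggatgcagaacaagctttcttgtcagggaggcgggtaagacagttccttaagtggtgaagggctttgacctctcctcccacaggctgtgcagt
Col24a1 (chr3:145292222-145292471, plus strand): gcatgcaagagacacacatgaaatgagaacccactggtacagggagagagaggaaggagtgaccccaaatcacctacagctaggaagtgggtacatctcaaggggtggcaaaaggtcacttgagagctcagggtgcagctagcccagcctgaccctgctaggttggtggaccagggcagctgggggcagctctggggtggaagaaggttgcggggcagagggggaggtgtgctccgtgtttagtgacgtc
Col6a6 (chr9:105828161-105828335, minus strand): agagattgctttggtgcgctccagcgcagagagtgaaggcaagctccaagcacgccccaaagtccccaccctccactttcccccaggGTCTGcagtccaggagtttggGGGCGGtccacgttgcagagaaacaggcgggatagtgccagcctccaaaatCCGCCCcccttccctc
Col4a4 (chr1:82586850-82586975, minus strand): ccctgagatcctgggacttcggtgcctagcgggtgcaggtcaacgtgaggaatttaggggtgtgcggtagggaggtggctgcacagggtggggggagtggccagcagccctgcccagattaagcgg

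The Col1a2 stretch of 123 bases held 2 GC boxes and 1 CAGAC. In the GENCODE annotation Col1a2 starts earlier, at base 4504814 of chromosome 6, so this stretch lies inside that gene and not upstream of it. The Col3a1 stretch held 1 TATAAA and 2 CAGAC matches, and its G and C content of 35.2% was the lowest among the 38 collagen promoters, whose median was 59.0%. The Col24a1 and Col4a4 stretches held none of the 4 motifs. In the GENCODE annotation Col4a4 and Col4a3 start head to head on opposite strands, with 71 bases between their starts, and Col4a1 and Col4a2 also start head to head, with annotated ends that share 22 bases. These matches are descriptions of letters and were not tested as binding sites.

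The collagen RNA of the muscle was dominated by a few chains. The 5 most abundant genes by CPM, Col1a1, Col1a2, Col4a1, Col3a1 and Col4a2, held 63.6% of all collagen CPM. Over 24 libraries, 17 collagen genes averaged above 10 CPM, 17 lay between 1 and 10 CPM, and 10 lay at 1 CPM or less.

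Scaled per kilobase of the longest protein-coding transcript, so that genes can be compared, Col1a1 led with a mean level of 50.3 CPM per kilobase, followed by Col1a2 with 44.1, Col3a1 with 32.5, Col4a1 with 31.1 and Col4a2 with 23.7. Type VI collagen came next, at 16.5 for Col6a1, 15.03 for Col6a2 and 10.3 for Col6a3, followed by the basement-membrane-associated Col15a1 at 9.69 CPM per kilobase. Col1a1 was above Col1a2 in 18 of 24 libraries and Col3a1 was above Col4a1 in 13 of 24, so those neighbors were not separated in every library. Col4a1 was above Col4a2 in 24 of 24 libraries. Type V chains, which seed type I fibrils, followed at 7.11 for Col5a3, 6.94 for Col5a1 and 4.60 for Col5a2, and Col5a3 was above Col5a1 in 13 of 24 libraries. The order depends on the length used, because with all annotated exons Col1a2 and Col3a1 moved to ranks 4 and 5, behind Col4a1 and Col4a2.

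**Figure D1:**
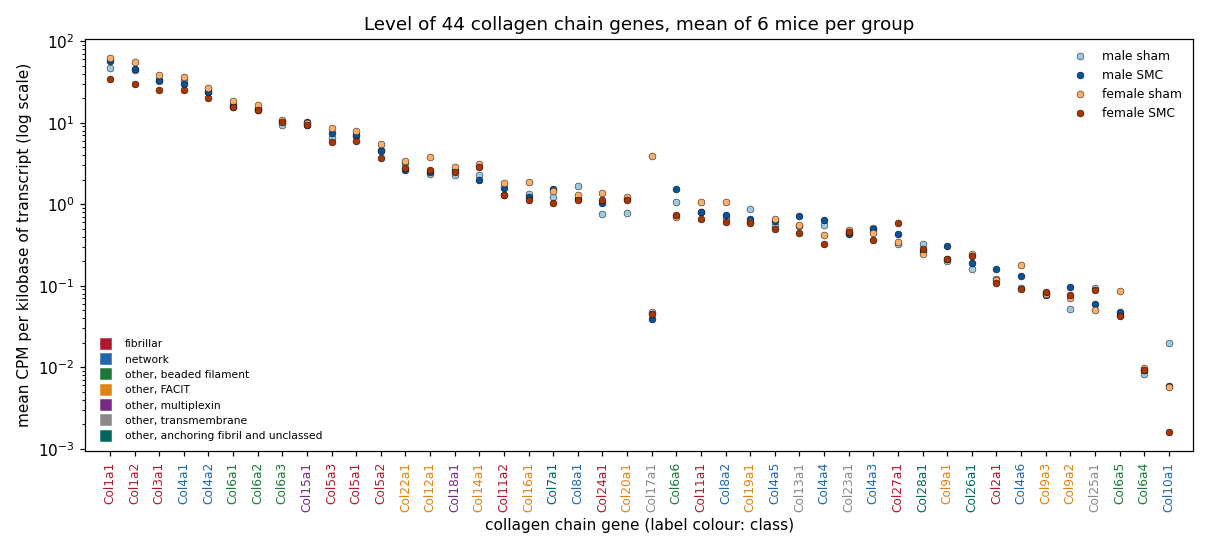
Mean level of each of the 44 collagen chain genes in CPM per kilobase of transcript (log axis), with 1 point per group of 6 mice and gene labels colored by class. Levels run from Col1a1 at the left to Col10a1 at the right, and the female sham point of Col17a1 stands far above its other 3 points because of replicate 11.

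By class, fibrillar collagens summed to 852 CPM ± 257 (SD, n = 6) in male sham, 932 ± 186 in male SMC, 1074 ± 462 in female sham and 639 ± 113 in female SMC. They held 51.8%, 53.6%, 53.5% and 46.8% of collagen CPM in those groups. Network collagens summed to 391 CPM ± 39.6, 380 ± 50.8, 441 ± 133 and 317 ± 73.3 in the same order. The beaded filament collagens summed to 235 CPM ± 49.3, 258 ± 16.6, 268 ± 115 and 242 ± 35.0. The female sham group had the widest spread of these sums.

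Gene by gene the same group was the most variable. The SD of log2 CPM was largest in female sham for 24 of the 39 tested genes, in male sham for 10, in female SMC for 4 and in male SMC for 1. Its median over the 39 genes was 0.62 in female sham, 0.44 in male sham, 0.36 in female SMC and 0.27 in male SMC. Female sham replicate 7 was the lowest of the 6 for 19 of 39 genes, whereas replicate 8 was the highest for 13 and replicate 10 for 9.

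In males, none of the 39 tested collagen genes passed a false discovery rate (FDR) of 0.05 for SMC against sham (edgeR quasi-likelihood test, Benjamini-Hochberg over 16408 genes), where percent called over all genes was 0. The largest collagen differences by p were in minor chains, which were higher with SMC. At an unadjusted p under 0.05, 4 collagen genes were higher and 1 was lower (10.3% and 2.56% of 39, against 5.41% and 5.59% of all genes). In all, 28 of 39 had a positive log2 fold change (71.8%, against 49.1% of all genes), and the median was 0.10 against -0.0044 for all genes. That majority changed with the fit, since 17 were higher and 22 lower without TMM factors, and 21 were higher and 18 lower without male sham replicate 4. Leaving out TMM factors also moved the median of all genes down in males. The shares of all genes given above belong to the main fit, so these counts cannot be set against them.

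Col20a1, which encodes a FACIT collagen, was 3.06 CPM in the lowest, 3.79 in the median and 4.68 in the highest male sham library, and 4.70, 5.91 and 6.75 CPM in male SMC. The groups did not overlap, although the lowest SMC library lay just above the highest sham library. Groups without overlap in that direction occurred for 0.591% of all genes. Its log2 fold change was 0.56 ± 0.14 (SE, FDR = 0.139 by edgeR, n = 6), and only DESeq2 placed it past the threshold (adjusted p = 0.0321). In the GENCODE annotation, 79 bases of Col20a1 exons are shared with a transcript on the same strand, BX649560.1, whose reads cannot be told apart there.

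Col6a6, an additional type VI chain, ran from 6.46 over 9.35 to 11.6 CPM in male sham and from 10.7 over 14.2 to 15.2 CPM in male SMC. Only the top of the sham range reached into the SMC range. Its log2 fold change was 0.52 ± 0.18 (SE, FDR = 0.283 by edgeR, n = 6). Col24a1, a minor fibrillar collagen, ran from 3.53 over 5.37 to 7.85 CPM in male sham and from 5.67 over 7.91 to 8.52 CPM in male SMC, with a log2 fold change of 0.44 ± 0.17 (SE, FDR = 0.316 by edgeR). The fourth higher gene was Col13a1, a transmembrane collagen found at neuromuscular junctions (0.40 ± 0.18, FDR = 0.415).

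On the lower side, Col8a1, a short-chain network collagen of vessel walls, ran from 3.39 over 8.41 to 13.6 CPM in male sham and from 5.08 over 5.88 to 6.69 CPM in male SMC. All 6 SMC values lay inside the sham range, and the log2 fold change was -0.54 ± 0.23 (SE, FDR = 0.367 by edgeR). Col25a1, a transmembrane collagen needed for motor innervation, was listed at 0.63 CPM ± 0.32 (SD, n = 6) in male sham and 0.40 ± 0.14 in male SMC (log2 fold change -0.69 ± 0.40, FDR = 0.550). Col22a1, a FACIT collagen of the myotendinous junction, averaged 28.2 CPM ± 9.86 and 22.9 ± 5.07 (log2 fold change -0.30 ± 0.21, FDR = 0.652).

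The abundant chains of males differed little between the groups. Col1a1 ran from 185 over 222 to 457 CPM in male sham and from 215 over 316 to 543 CPM in male SMC. Its log2 fold change was 0.25 ± 0.35, with overlapping groups and FDR = 0.853. For Col1a2, Col3a1, Col4a2, Col6a1, Col6a2 and Col15a1 the log2 fold change lay between 0.01 and 0.11, with FDR of 0.913 or more. Col6a3 was at 0.19 ± 0.20 and Col4a1 at -0.09 ± 0.19.

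**Figure D2:**
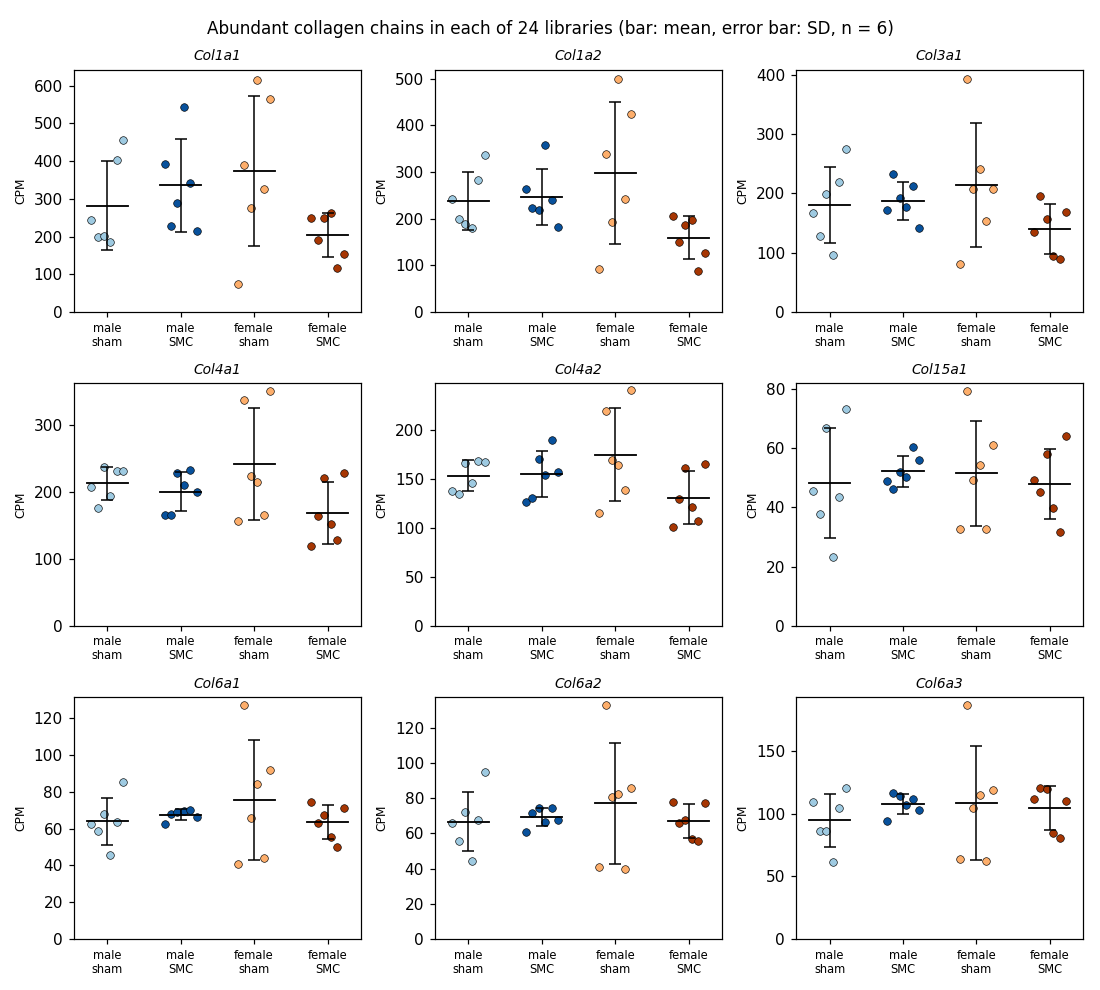
CPM of 9 abundant collagen chains in each library, by group, with the mean as a bar and the SD (n = 6) as an error bar. Male sham and male SMC overlap in every panel, and female sham spreads widest, from 73.4 to 615 CPM for Col1a1.

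In females, most collagen chains were lower with SMC than in sham, but none passed the FDR of 0.05, where percent called over all genes was 0.341. Of 39 tested genes, 34 had a negative log2 fold change (87.2%, against 52.4% of all genes), and the median was -0.30 against -0.011 for all genes. At an unadjusted p under 0.05, 10 were lower (25.6%, against 7.47% of all genes) and 1 was higher (2.56%, against 5.02%). The 10 comprised 6 fibrillar chains (Col1a1, Col1a2, Col3a1, Col5a1, Col5a2 and Col5a3), 3 network chains (Col4a1, Col4a2 and Col8a2) and the FACIT chain Col16a1. Beside these values stand the tendon markers, of which 7 of 8 were lower in female SMC, 5 of them at an unadjusted p under 0.05 and none at the FDR, with a median log2 fold change of -0.87. Their sum ran from 209 to 833 CPM in female sham and from 134 to 414 CPM in female SMC. The lists for muscle fiber, endothelial cells, and smooth muscle and pericytes did not go this way, with 0%, 16.7% and 0% of their markers lower. Nor did Schwann cell (16.7%), adipocyte, slow fiber, and cartilage and bone markers (0% each). Fibroblast (87.5%), macrophage (66.7%) and keratinocyte (100%) markers were mostly lower, where 52.4% of all genes were. The endothelial sum ran from 198 to 354 CPM in female sham and from 278 to 376 CPM in female SMC. The part of these cells in the collagen values was not tested. Without female sham replicates 10 and 12, 30 of 39 collagen genes were lower, 5 of them at an unadjusted p under 0.05. The shares of all genes given above belong to the fit with every library, so these 2 counts cannot be set against them.

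Col1a1, the alpha1 chain of type I collagen, ran from 73.4 over 357 to 615 CPM in female sham and from 118 over 219 to 261 CPM in female SMC. The lowest sham library lay below every SMC library, and the other 5 lay above the highest SMC library. The log2 fold change was -0.88 ± 0.35 (SE, FDR = 0.277 by edgeR, n = 6), and it was -0.37 without replicates 10 and 12 and -1.09 without replicate 7. Col1a2, its partner chain, ran from 92.0 over 291 to 499 CPM in female sham and from 88.5 over 168 to 206 CPM in female SMC, with a log2 fold change of -0.91 ± 0.28 (FDR = 0.146). Without female sham replicate 7 Col1a2 passed the threshold (-1.09, FDR = 0.0412), whereas without replicates 10 and 12 it was at -0.44. Whether Col1a2 passed the threshold thus depended on 1 sham library.

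**Figure D3:**
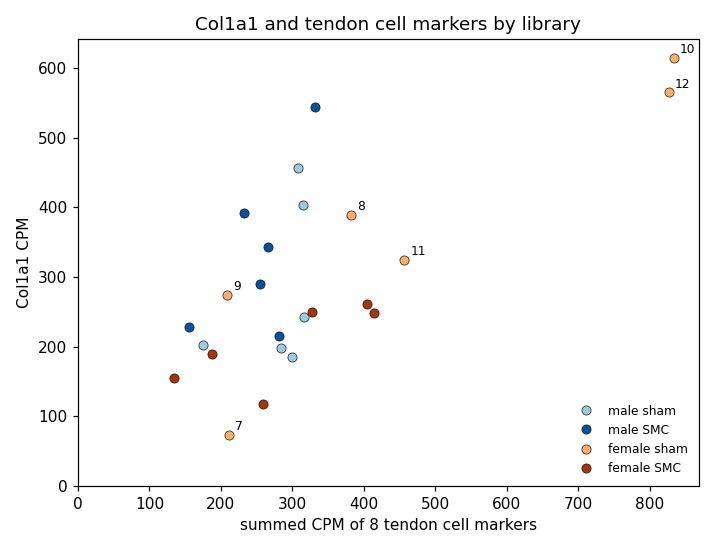
Col1a1 CPM (vertical axis) against the summed CPM of 8 tendon cell markers (horizontal axis) in 24 libraries, colored by group, with female sham replicates numbered. Female sham 10 and 12 are the highest on both axes, and female sham 7 has the lowest Col1a1 with 211 CPM of tendon markers.

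Col3a1, the chain of the finer type III fibrils, ran from 81.0 over 207 to 393 CPM in female sham and from 89.8 over 145 to 195 CPM in female SMC (log2 fold change -0.62 ± 0.28, FDR = 0.351). Here replicate 8 was the highest sham library, not 10 or 12. Replicate 8 also had the highest sum of 8 fibroblast markers of all 24 libraries, 2255 CPM. Over the fibroblast list 7 of 8 genes were lower in female SMC, none at an unadjusted p under 0.05, and the sum ran from 745 to 2255 CPM in female sham and from 911 to 1233 CPM in female SMC. The part of fibroblast and tendon cell content in the collagen values was not tested.

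Col16a1, a FACIT collagen of dense matrix, had the smallest p of the family in females. It ran from 3.36 over 11.3 to 12.7 CPM in female sham and from 4.28 over 6.13 to 7.16 CPM in female SMC, with overlapping groups. The log2 fold change was -0.74 ± 0.22 (SE, FDR = 0.119 by edgeR, n = 6), and it passed the threshold without replicate 7 (-0.90, FDR = 0.0247). Col5a2 ran from 16.96 over 36.0 to 62.3 CPM in female sham and from 17.4 over 24.6 to 29.8 CPM in female SMC (log2 fold change -0.59 ± 0.20, FDR = 0.196).

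For the basement membrane, Col4a1 ran from 156 over 219 to 351 CPM in female sham and from 119 over 158 to 228 CPM in female SMC. The log2 fold change was -0.52 ± 0.19 (SE, FDR = 0.218 by edgeR). Col4a2, the chain that assembles with it, ran from 115 over 167 to 241 CPM and from 101 over 125 to 165 CPM, with a log2 fold change of -0.42 ± 0.15 (FDR = 0.225). In both chains the groups overlapped. All 8 tested network collagens had a negative log2 fold change in females, with a median of -0.42. Among them was Col4a6 (-0.93 ± 0.58), which was low except for 4.63 CPM in female sham replicate 11, the library with many keratinocyte markers. The other female sham libraries lay at 0.328 to 0.780 CPM and female SMC at 0.281 to 1.38 CPM.

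The type VI chains showed smaller differences. In females Col6a1, Col6a2 and Col6a3 had log2 fold changes of -0.25 ± 0.20, -0.21 ± 0.21 and -0.06 ± 0.20, and Col15a1 was at -0.10 ± 0.23. Their FDR values lay between 0.654 and 0.944. Col6a2, Col6a3 and Col15a1 turned positive once female sham replicate 8 was left out.

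One fibrillar chain went the other way. Col27a1, a minor fibrillar collagen best known from cartilage, ran from 1.66 over 2.72 to 3.15 CPM in female sham and from 3.37 over 4.001 to 5.96 CPM in female SMC. The groups did not overlap, as was true of 0.396% of all genes in that direction. The log2 fold change was 0.75 ± 0.24 (SE, FDR = 0.157 by edgeR, n = 6), and in males it was 0.41 ± 0.24 with overlapping groups. Col25a1 and Col28a1 were the next higher genes in females by p, at 0.72 ± 0.41 and 0.22 ± 0.30.

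**Figure D4:**
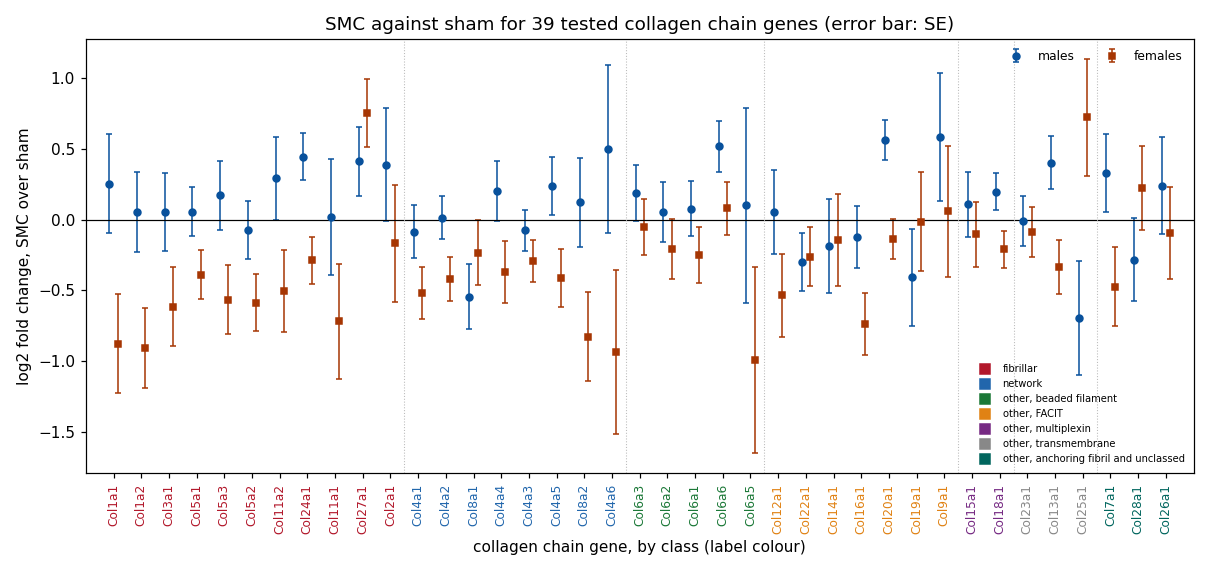
The log2 fold change of SMC over sham (vertical axis, error bar SE) for the 39 tested collagen genes, grouped by class along the horizontal axis, in males (circles) and females (squares). Most female squares lie below zero, 34 of 39, and 28 of 39 male circles lie above it.

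Whether SMC acted differently in the sexes was tested directly as an interaction, the male effect minus the female effect. None of the 39 collagen genes passed the FDR of 0.05 (percent called over all genes 0), and the smallest collagen FDR was 0.926. At an unadjusted p under 0.05, 9 genes were positive and 1 was negative (23.1% and 2.56%, against 3% and 2.13% of all genes). In all, 32 of 39 were positive (82.1%, against 51.6% of all genes), with a median of 0.51 against 0.0084. The opposite-direction pattern, higher in males and lower in females, held for 25 genes, with 9 lower in both, 3 higher in both and 2 the reverse. The share of all genes with this pattern was not computed, and the majority of higher genes in males changed with the fit, as given above. Col20a1 (0.70 ± 0.20) and Col24a1 (0.73 ± 0.24) had the smallest interaction p-values, followed by Col13a1 (0.74 ± 0.26). Col1a1 and Col1a2 were at 1.13 ± 0.49 and 0.96 ± 0.40. These interactions rest on the same female sham libraries. The female changes of both genes were smaller without replicates 10 and 12 and larger without replicate 7, as given above. Interaction values without those libraries are not given here.

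With the sexes averaged, again none of the 39 passed (percent called over all genes 2.36), and 28 were lower (71.8%, against 52.4%). At an unadjusted p under 0.05, 3 were higher and 5 lower (7.69% and 12.8%, against 7.9% and 9.65% of all genes). Col27a1 came nearest, at 0.58 ± 0.17 (SE, FDR = 0.0669 by edgeR), and passed in DESeq2 (adjusted p = 0.0239). Col16a1 was at -0.43 ± 0.15 (FDR = 0.132), Col8a1 at -0.39 ± 0.16 and Col5a2 at -0.33 ± 0.14. Col6a6 and Col20a1 were at 0.30 ± 0.13 and 0.21 ± 0.10. For Col16a1 the averaged change passed the threshold without female sham replicate 7 (-0.52, FDR = 0.0152), and for Col27a1 without male sham replicate 5 (0.69, FDR = 0.0203).

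Collagen genes past the FDR were found in the comparisons between males and females. In sham muscle, 2 of 39 collagen genes passed the FDR of 0.05, both lower in males (percent called over all genes 1.97, of which 1.14 lower). In all, 31 of 39 were lower in males (79.5%, against 50.4% of all genes), 6 of them at an unadjusted p under 0.05 (15.4%, against 9.23%), whereas 2 were higher at that p (5.13%, against 6.23%). Col24a1 ran from 3.53 over 5.37 to 7.85 CPM in male sham and from 8.58 over 9.92 to 10.8 CPM in female sham, with no overlap, as was true of 0.524% of all genes. The log2 difference, male minus female, was -0.85 ± 0.17 (SE, FDR = 0.00764 by edgeR, n = 6). Col20a1 ran from 3.06 over 3.79 to 4.68 CPM in male sham and from 5.31 over 5.84 to 7.62 CPM in female sham, again with no overlap. Its log2 difference was -0.66 ± 0.14 (FDR = 0.0161), and the call was lost without female sham replicates 10 and 12 (-0.61, FDR = 0.0572) and without TMM factors (-0.65, FDR = 0.0594). Col16a1 was at -0.47 ± 0.21 (FDR = 0.283) and passed without female sham replicate 7 (-0.64, FDR = 0.0289). Beside these differences, 7 of 8 tendon markers were lower in male sham, 3 of them at an unadjusted p under 0.05, with sums of 175 to 316 CPM in male sham and 209 to 833 CPM in female sham. All 6 Schwann cell markers were also lower, 4 of them at that p, with sums of 47.3 to 97.4 and 65.2 to 180 CPM. Their part in the collagen values was not tested.

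In SMC muscle the sexes overlapped for both of these genes. Col24a1 ran from 5.67 to 8.52 CPM in male SMC and from 4.79 to 10.1 CPM in female SMC, and Col20a1 from 4.70 to 6.75 and from 4.03 to 6.88 CPM. Between the SMC groups 2 of 39 genes passed the FDR of 0.05, both higher in males (percent called over all genes 1.03, of which 0.683 higher). In all, 30 of 39 were higher in males (76.9%, against 49.7% of all genes), 5 of them at an unadjusted p under 0.05 (12.8%, against 5.17%), and 0 were lower at that p (against 5.33%). Col6a6 ran from 10.7 over 14.2 to 15.2 CPM in male SMC and from 4.61 over 6.85 to 7.44 CPM in female SMC, with no overlap, as was true of 1.21% of all genes. Its log2 difference was 1.06 ± 0.18 (SE, FDR = 0.00192 by edgeR, n = 6), a fold of 2.09. In sham muscle the difference in Col6a6 had the same direction, 0.63 ± 0.19 with overlapping groups (FDR = 0.0776), and it passed in DESeq2 and without female sham replicate 8 (0.81, FDR = 0.0167).

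Col4a4, a chain of the alpha3-alpha4-alpha5 type IV network best known from the kidney glomerulus, ran from 5.36 over 5.79 to 8.30 CPM in male SMC and from 2.53 over 3.30 to 3.94 CPM in female SMC. No female library reached the male range, and the log2 difference was 0.99 ± 0.22 (SE, FDR = 0.0179 by edgeR). Leaving out male SMC replicate 13, male SMC replicate 14 or female SMC replicate 19 put it just past 0.05, at FDR values of 0.0562, 0.0567 and 0.0560. Its head-to-head neighbor Col4a3 was at 0.44 ± 0.15 (FDR = 0.207 by edgeR), also without overlap, and passed with voom weights (0.39, FDR = 0.0475). Col13a1, at 0.68 ± 0.19 with no overlap (FDR = 0.0804 by edgeR), passed in DESeq2 (adjusted p = 0.0325). All 5 adipocyte markers were lower in male SMC than in female SMC, each at an unadjusted p under 0.05 and none at the FDR, with log2 differences from -2.15 to -1.45. Their sum ran from 6.63 to 40.1 CPM in male SMC and from 15.8 to 175 CPM in female SMC, and its part in the collagen differences was not tested. Whether the sex differences in sham and SMC muscle were unequal is the interaction given above, which no collagen gene passed.

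**Figure D5:**
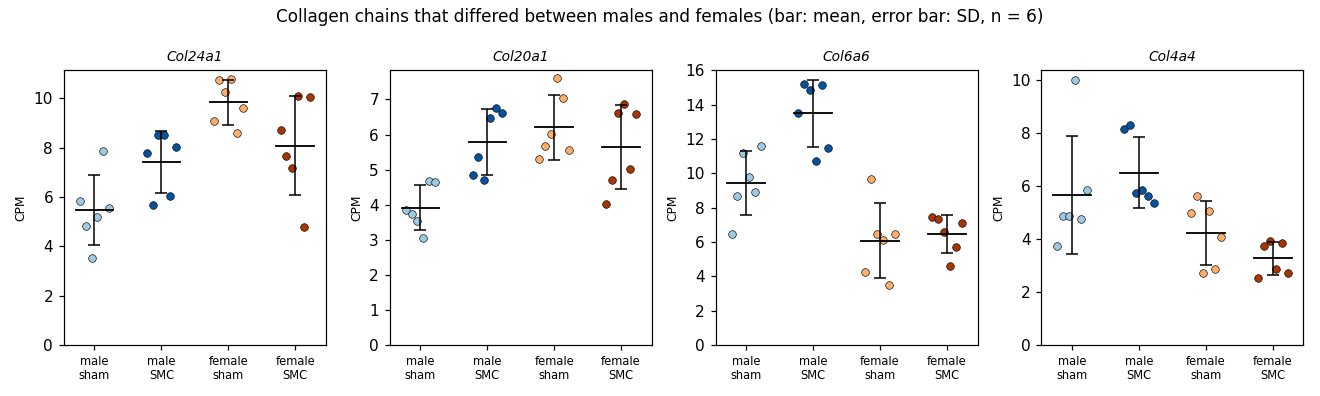
CPM of Col24a1, Col20a1, Col6a6 and Col4a4 in each library, by group, with the mean as a bar and the SD (n = 6) as an error bar. For Col24a1 and Col20a1 the male sham points lie below all female sham points, and for Col6a6 and Col4a4 the male SMC points lie above all female SMC points.

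Chains that assemble into 1 molecule were also compared within each library, as ratios that need no scaling between libraries. The ratio of Col1a1 to Col1a2 counts averaged 1.15 ± 0.19 (SD, n = 6) in male sham, 1.33 ± 0.19 in male SMC, 1.21 ± 0.22 in female sham and 1.28 ± 0.06 in female SMC. The ratio of Col4a1 to Col4a2 averaged 1.39 ± 0.07, 1.30 ± 0.05, 1.36 ± 0.12 and 1.28 ± 0.09 in the same order. In males its log2 value was 0.10 lower with SMC (-0.10, exact permutation p = 0.0260), which did not hold after adjustment over the 8 ratio tests (exact permutation, adjusted p = 0.208). The other 7 exact permutation p-values lay between 0.115 and 0.773, where 0.00216 is the smallest that 6 against 6 can give.

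The ratio of Col6a1 to Col6a2 averaged between 0.95 and 0.99 in the 4 groups. The ratio of Col3a1 to Col1a1, which compares separate molecules, was the least constant and ran from 0.33 to 1.10 over the 24 libraries. Per length of transcript, the mean over 24 libraries was 1.12 ± 0.16 (SD) for Col1a1 to Col1a2 and 1.30 ± 0.09 for Col4a1 to Col4a2.

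The remaining tested chains overlapped between sham and SMC in both sexes, and none passed the FDR. Among the more abundant of them, Col12a1, a FACIT collagen of tendon and perimysium at a mean of 32.4 CPM, was at 0.05 ± 0.30 on the log2 scale in males and -0.53 ± 0.29 in females. Col14a1, a related FACIT collagen at 16.5 CPM, was at -0.19 ± 0.33 and -0.15 ± 0.33. Col18a1, the basement membrane collagen that gives rise to endostatin, at 14.4 CPM, was at 0.20 ± 0.13 and -0.21 ± 0.13. Only Col14a1 of these 3 had the same sign in both sexes.

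Type V and XI chains share fibrils with type I and type II collagen. Col5a1 and Col5a3 were at 0.06 ± 0.17 and 0.17 ± 0.24 in males and at -0.39 ± 0.17 and -0.57 ± 0.24 in females. Col11a1 and Col11a2 were at 0.02 ± 0.41 and 0.29 ± 0.29 in males and at -0.72 ± 0.41 and -0.51 ± 0.29 in females. Col8a2, the partner of Col8a1, was at 0.12 ± 0.31 and -0.83 ± 0.31, and the type IV chain Col4a5 at 0.24 ± 0.20 and -0.41 ± 0.20. Each of these 6 genes was higher with SMC in males and lower in females, without passing the FDR in either.

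Of the tested low genes, Col19a1 and Col23a1, at means of 2.91 and 2.58 CPM, were at -0.41 ± 0.34 and -0.01 ± 0.18 on the log2 scale in males and at -0.02 ± 0.35 and -0.09 ± 0.17 in females. Col2a1, the main cartilage collagen, Col6a5, Col9a1 and Col26a1 averaged between 0.514 and 0.892 CPM. Their standard errors in the SMC comparisons ran from 0.32 to 0.69.

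Of the low members, 5 genes were too low for the test. Col9a2 and Col9a3, chains of cartilage type IX collagen, had at most 11 and 13 counts in a library. Col10a1, the collagen of hypertrophic cartilage, had at most 7 counts, and Col6a4 had at most 5. Col17a1, the hemidesmosome collagen of keratinocytes, was at 0.0656 to 0.474 CPM in 23 libraries and at 130 CPM (3629 counts) in female sham replicate 11. That library also held the highest Col4a6, 4.63 CPM against 0.281 to 2.35 CPM elsewhere, and the highest Col7a1, the anchoring fibril collagen, 26.2 CPM against 6.17 to 21.9 CPM. Its 10 keratinocyte markers summed to 1100 CPM, and their part in these values was not tested.

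Genes that build, cut, bind or signal to collagen were compared in the same fit. None of the 5 lists held a gene past the FDR of 0.05 for SMC in males, in females, with the sexes averaged or in the interaction. In females, 14 of 22 collagen biosynthesis genes (63.6%), 10 of 13 processing and crosslinking genes (76.9%) and 12 of 15 genes of collagen breakdown and its inhibitors (80.0%) had a negative log2 fold change, against 52.4% of all genes, with medians of -0.11, -0.19 and -0.15. At an unadjusted p under 0.05, 1, 3 and 1 of them were lower (4.55%, 23.1% and 6.67%, against 7.47% of all genes), so that for biosynthesis and breakdown these shares did not exceed that of all genes. The 1 gene in the breakdown list was the inhibitor Timp2, at -0.34 ± 0.14.

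In biosynthesis, P3h3, a prolyl 3-hydroxylase family member, was at -0.33 ± 0.12 with the sexes averaged (FDR = 0.127), and Ppib, a prolyl isomerase of the same complexes, at -0.16 ± 0.08. Mia3 and Plod1, which act in procollagen export and lysyl hydroxylation, were at 0.09 ± 0.06 and 0.03 ± 0.06. In crosslinking, Lox, the lysyl oxidase that initiates crosslinks, was at -0.62 ± 0.18 with the sexes averaged (FDR = 0.0669) and at -0.95 ± 0.26 in females (FDR = 0.0999). Adamts2, which removes the procollagen N-propeptide, was at -0.51 ± 0.14 in females and 0.17 ± 0.14 in males, and Pxdn, which crosslinks type IV collagen, at 0.12 ± 0.09 averaged. The list's only call was in the sham groups, where Adamts3, another procollagen N-proteinase, was lower in males than females (-0.77 ± 0.20, FDR = 0.0407).

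Among genes of breakdown and its inhibitors, with the sexes averaged, the protease inhibitors Timp4 and Timp2 were at -0.32 ± 0.15 and -0.18 ± 0.10, and the proteases Mmp15 and Mmp3 at 0.17 ± 0.09 and 0.37 ± 0.49. Among 11 tested collagen receptors, 5 were higher and 6 lower in males and 4 higher and 7 lower in females. The female share lower was 63.6%, against 52.4% of all genes. At an unadjusted p under 0.05, 18.2% of receptors were lower in females, against 7.47% of all genes. The integrin chains Itga1, Itga10 and Itgb1 were at 0.22 ± 0.11, -0.40 ± 0.20 and -0.11 ± 0.05 with the sexes averaged, and the proteoglycan Cspg4 was at 0.21 ± 0.13. Among 18 TGF-beta and matrix signals, 9 were higher in males and 7 in females, where 49.1% of all genes were higher in males. In females 61.1% of these signals were lower, and 5.56% were lower at an unadjusted p under 0.05. Ccn2, a target of TGF-beta and of mechanical load, was at -0.58 ± 0.17 with the sexes averaged (FDR = 0.0631), and the receptor Tgfbr1 was at -0.21 ± 0.08. The ligands Tgfb2 and Tgfb3 were at 0.22 ± 0.08 and 0.08 ± 0.05.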

How the data were processed

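The authors deposited 1 table of raw read counts per gene for 24 libraries. Per the submitters' processing notes, cutadapt 1.16, STAR 2.7.9a, featureCounts 1.6 and DESeq2 1.34.0 were used with GRCm39; the annotation release and the strand setting are not given in the sources used here. Groups came from the sample titles. Symbols came from gene tables matched by Ensembl ID (52083 of 55416 genes), and lengths and overlaps from GENCODE M21. Genes without a symbol held 0.361% of counts.

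The counts as deposited were fitted once over all 24 libraries with edgeR 4.0.16 (R 4.3.3): filterByExpr, which left 16408 genes, TMM factors, 1 mean per group and the quasi-likelihood test, with Benjamini-Hochberg FDR over all genes. CPM values use the TMM-scaled library sizes. Ratios were tested by 2-sided exact permutation over 924 relabelings (scipy 1.17.1). The fit was tested on simulated counts of the female comparison over 16408 genes, where 57.6%, 88.1% and 95.5% of genes changed by 0.5, 1 and 1.5 on the log2 scale were called, and 5.29% of 170 calls were unchanged genes. The changed genes were not drawn from those of lowest level, and each gene had the same simulated spread in every group. Whether the percentages called hold for the measured female libraries was not tested. The median SD of log2 CPM over the 39 tested collagen genes was 0.62 in female sham and 0.36 in female SMC. In females Col1a2 at -0.91 and Col1a1 at -0.88 were not called (FDR = 0.146 and 0.277 by edgeR). Replicate libraries differed by more than sampling noise in all 60 within-group pairs (chi-square per degree of freedom at least 10.4). The labels do not state that libraries came from separate cages, so p-values measure the spread between these samples. In 24 of 24 libraries the sex label was matched by Xist and Ddx3y. 

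Named genes were 9 abundant chains fixed by name, members past the FDR in any contrast, and the 3 higher and 3 lower members of smallest p in males, in females and with the sexes averaged; genes of the pathway lists were named if past the FDR, else up to 2 higher and 2 lower by p with the sexes averaged. The members and lists were chosen with earlier results of these data known. Col13a1, Col4a3 and the low genes were named after their values were seen, as were the keratinocyte list and the transcript length in place of all exons. Alternatives were DESeq2 1.42.0, voom with quality weights (limma 3.58.1), other filters, no TMM factors, 1 sex at a time and left-out libraries.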

Additional observations from a re-analysis of the deposited data

Results flagged for a closer look

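In 108 groups of 6 values tested for a sample far from the others (Dixon's criterion), 8 were marked, where chance alone marks about 5.4. Col17a1 and Col4a6 were added to the tested genes outside the naming rule, and both are among the marked. The number marked can therefore not be set against chance. Female sham replicate 11 stood apart for Col17a1, at 130 CPM with the other 5 libraries at 0.0656 to 0.474 CPM, and for Col4a6, at 4.63 CPM with the others at 0.328 to 0.780 CPM. This is the library with 1100 CPM of keratinocyte markers. For Col4a6 male SMC replicate 14 was also high in its group, at 2.35 CPM with the others at 0.406 to 0.773 CPM. Male sham replicate 4, 1 of the 2 libraries almost without slow fiber RNA, was high for Col4a4 (10.02 CPM, others 3.73 to 5.84 CPM) and for Col17a1 (0.455 CPM, others 0.184 to 0.279 CPM). Female sham replicate 7, the other such library, was low for Col8a1, at 3.17 CPM with the others at 6.89 to 7.89 CPM. Male SMC replicate 17 was high for Col27a1, at 5.86 CPM with the others at 2.52 to 3.46 CPM. In male sham replicate 3 the ratio of Col3a1 to Col1a1 counts was 0.983, with the others at 0.522 to 0.685. The causes were not tested.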

How the results depend on the processing

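The number of collagen genes past the threshold in males (0) became 1 with DESeq2, which added Col20a1. In females (0) it became 1 with no filter, which added Col17a1, and 3 without male sham replicate 4 and female sham replicate 7, and lay between 0 and 2 when 1 library was left out, the 2 coming without female sham replicate 7. With the sexes averaged (0) it became 1 with DESeq2, 1 with no TMM factors and 3 without male sham 4 and female sham 7, and lay between 0 and 1 when 1 library was left out. Between the sham groups (2) it became 1 with no TMM factors and 1 without female sham replicates 10 and 12, an alternative chosen after seeing the data. It became 3 with DESeq2, which added Col6a6, with no filter, which added Col17a1, and without male sham 4 and female sham 7, which added Col16a1, and lay between 2 and 3 in the leave-one-out fits. Between the SMC groups (2) it became 3 with DESeq2, which added Col13a1, and 3 with voom weights, which added Col4a3, and lay between 1 and 2 in the leave-one-out fits. In the interaction it stayed at 0 in every alternative run. All gene counts were also affected: DESeq2 called 128 genes in males where edgeR called 0. No TMM factors moved the median of all genes by -0.13 in males and -0.15 in females.

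In males several small log2 fold changes turned negative: with no TMM factors Col1a2 (-0.082), Col3a1 (-0.074), Col4a2 (-0.11), Col6a1 (-0.056), Col6a2 (-0.080) and Col15a1 (-0.030); with voom weights Col1a2 (-0.019) and Col3a1 (-0.036); without male sham 4 and female sham 7 Col1a2 (-0.025), Col3a1 (-0.082), Col4a2 (-0.0094), Col6a1 (-0.012), Col6a2 (-0.050) and Col15a1 (-0.044). With 1 library left out, the male values ran from -0.089 to 0.18 for Col1a2, -0.082 to 0.21 for Col3a1, -0.060 to 0.059 for Col4a2, -0.012 to 0.18 for Col6a1, -0.050 to 0.18 for Col6a2 and -0.044 to 0.26 for Col15a1. In females Col6a3 turned positive with voom weights (0.030) and without female sham 10 and 12 (0.0094), and with 1 library left out Col6a2 ran from -0.34 to 0.015, Col6a3 from -0.18 to 0.17 and Col15a1 from -0.21 to 0.057, each highest without female sham replicate 8. The difference in log2 ratio of Col1a1 to Col1a2 in females was -0.012 without male sham 4 and female sham 7, and ran from -0.012 to 0.16 with 1 library left out. With 1 library left out, that of Col3a1 to Col1a1 ran from -0.31 to 0.014 in males and from -0.0078 to 0.33 in females, and that of Col6a1 to Col6a2 in males from -0.0082 to 0.038. The causes were not tested.

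No ratio test passed its threshold in any alternative. No paired analysis was possible because the labels name no pairs, and the replicate numbers run from 1 to 24 without sharing. The paper states that in some experiments a sham and an SMC mouse shared paired housing. It does not say whether the sequenced mice were among these. The 5 untested genes had medians of 0 to 7.5 counts per library. The effect of depth on the tested genes was not examined.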
